A study of Mus musculus with 8 samples.

Results

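The nuclear receptors that repress or activate the core circadian clock were followed in the colon of bone marrow chimeric mice, together with the clock genes they act on. The 7 genes, of 26008 in the table, were *Nr1d1* and *Nr1d2*, which code for the repressors REV-ERBα and REV-ERBβ, *Rora*, which codes for the activator RORα, the clock genes *Bmal1* (also named *Arntl*), *Clock* and *Npas2*, and *Thra*, the thyroid hormone receptor gene that lies across from *Nr1d1* on the opposite strand. They were chosen by their known roles and by the low *Nr1d1* and *Nr1d2* values of the *penk*-/- chimeras in these same libraries, so that the differences of the 7 genes between the genotypes are given as a description, with intervals that show their precision, and no test of them is used as support. All 7 passed the filter of a mean normalized count of at least 10, as did 19127 genes of the table.

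The study asked whether enkephalins made by immune cells act on the gut in the absence of inflammation. Male C57BL/6JRj wild-type recipients, 7 weeks old, were lethally irradiated and engrafted with marrow of male *penk*-/- donors (strain B6.129-Penk-rstm1Pig/J, without proenkephalin, the precursor of enkephalins) or of wild-type *penk*+/+ donors, and colonic biopsies were taken 18 weeks after engraftment. Both groups of 4 mice were thus irradiated chimeras whose epithelium, muscle and enteric neurons came from the wild-type recipient, and the deletion concerned marrow-derived cells only. Each mouse gave 1 library of 33.1 to 50.7 M recovered reads (median 38.5 M). The hour at which each biopsy was taken and the cage of each mouse are not given in the sources used here, and a difference in either cannot be told apart from genotype.

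In the circadian clock, BMAL1 pairs with CLOCK or with NPAS2 and switches on the genes of its own repressors, among them those of the REV-ERB receptors. REV-ERBα and REV-ERBβ bind heme and recruit the corepressor NCoR with the histone deacetylase HDAC3, whereas RORα binds the same DNA elements and activates, so that the receptors of these opposing kinds compete over *Bmal1*, *Clock*, *Npas2* and *Cry1*. In the intestine the clock is known to give a daily rhythm to absorption, cell renewal and barrier function, and the REV-ERB transcripts are among those that swing most widely over the day.

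The DNA elements of this loop are shown in the start regions of the 3 genes that the results turn on, taken from RefSeq (300 bases, from 250 before to 50 after an annotated start; table build GRCm38.p6). Each was found once in GRCm39, whose coordinates are given here, and is written from 5′ to 3′ on the strand of the gene, with the motifs in capitals. The motifs searched on both strands were the E-box CACGTG and its variant CACGTT, to which BMAL1 and its partners are known to bind, the receptor half-site AGGTCA with its longer forms TAGGTCA and TAGGTTA, and the D-box TTATGTAA, a site of DBP and its relatives. TAGGTCA contains AGGTCA, so that one match of the longer form counts for both. The first sequence is *Nr1d1* (chr11:98666154-98666453, minus strand), the second *Nr1d2* (chr14:4230340-4230639, plus strand) and the third *Bmal1* (chr7:112806468-112806767, plus strand).
Nr1d1: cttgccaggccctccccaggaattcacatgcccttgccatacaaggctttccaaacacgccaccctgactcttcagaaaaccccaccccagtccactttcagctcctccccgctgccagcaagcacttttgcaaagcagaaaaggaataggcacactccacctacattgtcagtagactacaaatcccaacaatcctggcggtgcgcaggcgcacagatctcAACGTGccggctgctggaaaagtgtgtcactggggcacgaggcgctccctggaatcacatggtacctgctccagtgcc
Nr1d2: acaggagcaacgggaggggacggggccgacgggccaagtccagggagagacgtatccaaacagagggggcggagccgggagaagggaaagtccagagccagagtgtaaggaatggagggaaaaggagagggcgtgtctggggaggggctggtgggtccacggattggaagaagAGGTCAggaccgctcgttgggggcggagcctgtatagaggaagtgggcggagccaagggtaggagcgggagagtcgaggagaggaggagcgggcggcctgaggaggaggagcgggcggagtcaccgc
Bmal1: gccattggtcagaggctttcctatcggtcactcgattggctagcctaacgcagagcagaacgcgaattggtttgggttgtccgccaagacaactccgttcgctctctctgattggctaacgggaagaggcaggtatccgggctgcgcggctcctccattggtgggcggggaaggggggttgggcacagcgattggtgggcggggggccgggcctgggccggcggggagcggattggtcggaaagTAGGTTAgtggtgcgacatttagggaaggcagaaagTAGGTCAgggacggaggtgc

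The *Nr1d1* window held the variant E-box CACGTT on the strand opposite to the gene, written above as AACGTG, starting 28 bases before the start; 4.68% of all 32851 promoter windows held that motif. In the *Nr1d2* window the half-site AGGTCA lay 77 bases before the start (16.3% of windows). The *Bmal1* window held TAGGTTA 6 bases before the start (1.44% of windows) and TAGGTCA at base 31 after it (2.61% of windows), which are the kind of element that REV-ERB and ROR receptors share. The E-box CACGTG (7.15% of windows) and the D-box (0.938%) matched none of the 9 windows of the 6 genes with an entry, and *Thra* had none. A match of letters is a description of the window and not a site of binding.

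*Penk* itself was measured first, as the deleted gene. Its normalized counts were 453, 512, 616 and 531 in the *penk*-/- and 473, 496, 560 and 636 in the *penk*+/+ chimeras (log2 fold change -0.03, SE 0.12, n = 4 per genotype). The groups overlapped, and because recipient cells of the biopsy keep the intact gene, bulk colon RNA does not check the genotype of the graft.

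Among the receptors, both REV-ERB transcripts were lower in every *penk*-/- chimera than in any *penk*+/+ chimera, while the transcript of their competitor RORα was at the same mean level. *Nr1d1* (chromosome 11 of GRCm39, 98658752 to 98666188) had 912, 1916, 848 and 1742 normalized counts in *penk*-/- replicates 1 to 4. The *penk*+/+ chimeras had 3547, 3851, 4124 and 4311. The groups lay far apart, and the *penk*-/- mice fell into a lower pair, replicates 1 and 3, and a higher pair, replicates 2 and 4, whereas the *penk*+/+ mice were close to each other. The mean of 1355 ± 553 (SD, n = 4) was 34.2% of the *penk*+/+ mean of 3958 ± 333, a log2 fold change of -1.64 (SE 0.25, 95% interval -2.21 to -1.07). Of the 19127 genes tested, *Nr1d1* ranked 16 among those lower in *penk*-/- chimeras by log2 fold change. In bulk tissue, fewer cells that express a gene and less of its RNA per cell cannot be told apart.

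*Nr1d2* (chromosome 14, 4230545 to 4266624) had 1816, 1936, 2109 and 2626 normalized counts in *penk*-/- and 3508, 3269, 4192 and 3955 in *penk*+/+ chimeras. Here too the groups did not overlap, but the difference was smaller: 2122 ± 357 was 56.9% of 3731 ± 418 (log2 fold change -0.82, SE 0.12, 95% interval -1.09 to -0.55). *Nr1d2* ranked 160 among the lower genes. The order of the *penk*-/- mice was not that of *Nr1d1*, since replicate 3, the lowest for *Nr1d1*, had the second highest *Nr1d2* value of its genotype. The ratio of *Nr1d1* to *Nr1d2* was 0.502, 0.990, 0.402 and 0.663 in *penk*-/- and 1.01, 1.18, 0.984 and 1.09 in *penk*+/+ chimeras, so that only *penk*-/- replicate 2 reached the ratio of the controls.

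*Rora* (chromosome 9) was the least abundant of the 7 genes, with 336, 490, 665 and 439 normalized counts in *penk*-/- and 339, 494, 546 and 542 in *penk*+/+ chimeras. The groups overlapped over their whole range (log2 fold change -0.01, SE 0.22, 95% interval -0.50 to 0.48). The spread of *Rora* between mice of one genotype was wide, and so was the interval.

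**Figure D1:**
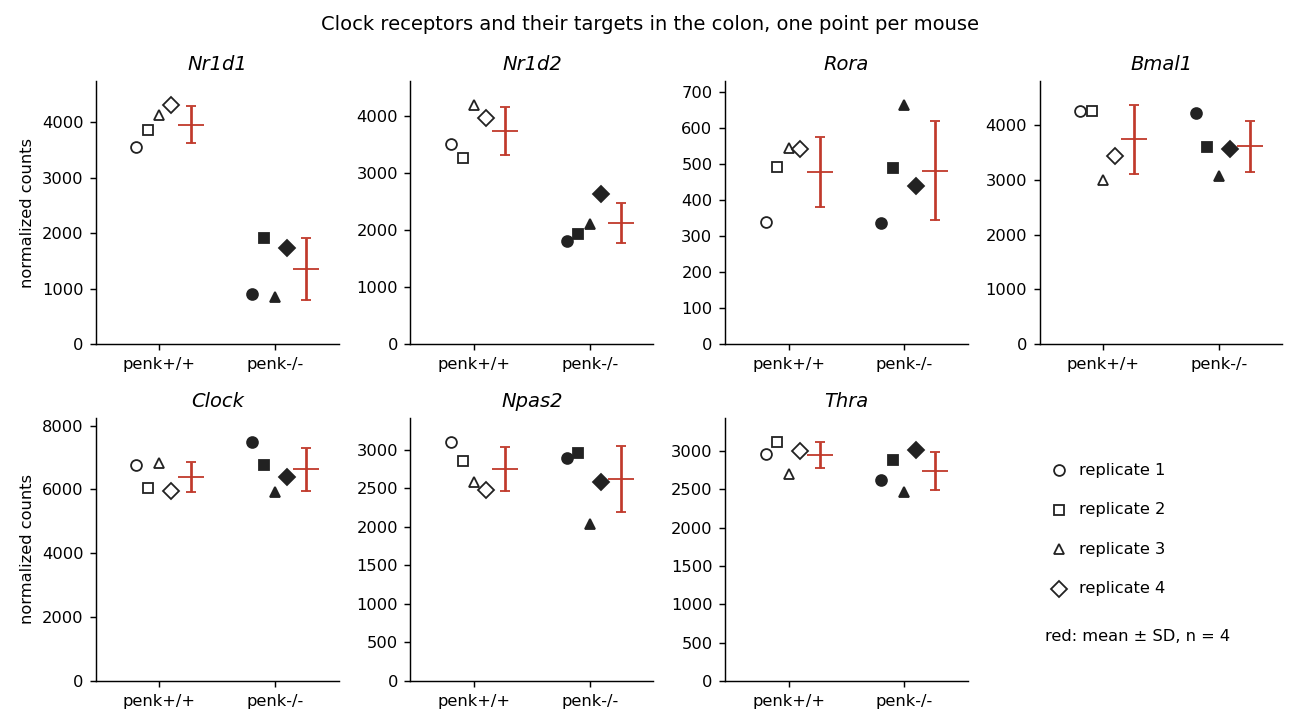
Normalized counts (vertical axes, from 0) of the 7 genes in each of the 8 mice, with *penk*+/+ chimeras as open and *penk*-/- chimeras as filled symbols, 1 symbol shape per replicate number, and mean ± SD in red. The genotypes are apart for *Nr1d1* (highest *penk*-/- value 1916, lowest *penk*+/+ value 3547) and *Nr1d2* (2626 and 3269) and overlap for the other 5 genes.

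Of the direct targets of these receptors in the clock, *Bmal1*, *Clock* and *Npas2* had overlapping values in the genotypes. *Bmal1* (chromosome 7), which REV-ERB receptors repress and whose window printed above held TAGGTTA and TAGGTCA, had 4221, 3610, 3067 and 3561 normalized counts in *penk*-/- and 4268, 4262, 2996 and 3442 in *penk*+/+ chimeras. Both the highest and the lowest of these 8 values were from *penk*+/+ mice, and the log2 fold change was -0.04 (SE 0.13, 95% interval -0.34 to 0.25). *Clock* (chromosome 5), the partner of BMAL1, had 7499, 6761, 5911 and 6381 in *penk*-/- and 6760, 6034, 6819 and 5944 in *penk*+/+ chimeras (log2 fold change 0.05, SE 0.08, 95% interval -0.14 to 0.24). *Npas2* (chromosome 1), which can take the place of CLOCK, had 2892, 2960, 2031 and 2582 in *penk*-/- and 3103, 2857, 2574 and 2476 in *penk*+/+ chimeras (log2 fold change -0.08, SE 0.12, 95% interval -0.36 to 0.20). For the 3 genes the groups overlapped, and the widest interval was that of *Bmal1*.

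*Thra* (chromosome 11, 98629109 to 98661924, plus strand) and *Nr1d1* (minus strand) share 3173 bases of the genome, at the end of both transcripts. *Thra* had 2619, 2881, 2462 and 3013 normalized counts in *penk*-/- and 2965, 3122, 2705 and 2993 in *penk*+/+ chimeras. The groups overlapped (log2 fold change -0.11, SE 0.08, 95% interval -0.28 to 0.07), and *penk*-/- replicates 1 and 3, the lower pair for *Nr1d1*, were also the lowest for *Thra*. The libraries were stranded, but the strand setting of the counting is not given in the sources used here. *Clock* also overlaps a neighbour, *Tmem165*.

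Of the 7 genes, the groups did not overlap for 2, both lower in *penk*-/- chimeras, beside 5.63% of all genes tested in either direction, 2.74% lower and 2.89% higher in *penk*-/- chimeras. Nothing is read from this count, because the contrast itself chose the genes. With limma and Benjamini-Hochberg adjustment over all genes, 0 of the 7 had an adjusted *p* below 0.05, beside 0% of all genes tested. Of all genes tested, 1842 had an unadjusted *p* below 0.05. The number of calls depended on the tool: on reads recovered from 7 libraries, without *penk*-/- replicate 1, DESeq2 called 367 of the 14627 genes to which it gave an adjusted *p* (2.51%), while edgeR called 5 genes (0.0261%). DESeq2 called 2 of the 7 members, the REV-ERB genes, and edgeR called none, from which again nothing is read.

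Levels of different genes were compared per kilobase of annotated exons. In *penk*+/+ chimeras *Nr1d1* stood highest, with 1221 ± 103 normalized counts per kilobase (SD, n = 4), and did not overlap the next gene. *Npas2* (502 ± 51.8), *Nr1d2* (412 ± 46.2), *Thra* (372 ± 22.0), *Clock* (370 ± 26.9) and *Bmal1* (323 ± 54.5) followed, and in this series each overlapped its neighbour. *Rora*, at 33.2 ± 6.72, was clear of all others. In *penk*-/- chimeras *Nr1d1* (418 ± 171) no longer stood apart, since its values overlapped those of *Npas2* (478 ± 77.3) above and of *Clock* (385 ± 38.9) below. *Nr1d2*, at 234 ± 39.5, ranked 6 of 7 in the *penk*-/- chimeras, below *Bmal1* (312 ± 40.8), whose values it overlapped. *Rora* (33.3 ± 9.50) was again last. When the longest annotated transcript was taken as the length, *Nr1d1* and *Rora* were again first and last in *penk*+/+ chimeras, but the order between them changed. In *penk*-/- chimeras *Nr1d1* (471 ± 192) then ranked 5, with values that overlapped those of its neighbours, and *Bmal1* (774 ± 101) ranked 1.

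Because the members were chosen on the difference between the genotypes, the relation of the receptors to their targets was examined on the deviations of each mouse from the mean of its own genotype. Over the 8 libraries, 11 relations were computed, each with an exact two-sided permutation test over the 576 orders within genotypes (smallest possible *p* = 0.00174) and adjustment over the 11. *Nr1d1* showed Pearson r = -0.09 with *Bmal1* (exact *p* = 0.799, adjusted 0.878; Spearman rho = -0.19), r = -0.04 with *Clock* (exact *p* = 0.906, adjusted 0.906; rho = 0) and r = 0.34 with *Npas2* (exact *p* = 0.653, adjusted 0.798; rho = 0.26). A relation of *Nr1d1* to any of the 3 targets within genotypes was thus not detectable in 8 mice. Without the 2 libraries farthest from the median of *Nr1d1*, r was -0.57 with *Bmal1*, -0.74 with *Clock* and -0.67 with *Npas2*, so that the values of r rested on those libraries.

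For *Nr1d2*, r was -0.65 with *Bmal1* (exact *p* = 0.0955, adjusted 0.263; rho = -0.76; r = -0.93 without the 2 farthest libraries), -0.29 with *Clock* (exact *p* = 0.580, adjusted 0.797; rho = -0.26; r = -0.63) and -0.47 with *Npas2* (exact *p* = 0.354, adjusted 0.649; rho = -0.57; r = -0.75). All 3 were negative, and none passed the adjusted threshold of 0.05. Neither did the relation of *Nr1d1* to *Nr1d2* (r = 0.41, exact *p* = 0.502, adjusted 0.788; rho = 0.38; r = 0.89 without the 2 libraries) or that of *Nr1d1* to *Thra* (r = 0.73, exact *p* = 0.208, adjusted 0.458; rho = 0.69; r = 0.59).

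For *Rora*, whose product is an activator of these genes, r was also negative with all 3: r = -0.81 with *Bmal1* (exact *p* = 0.0278, adjusted 0.191; rho = -0.86; r = -0.63 without the 2 libraries), -0.74 with *Clock* (exact *p* = 0.0764, adjusted 0.263; rho = -0.57; r = -0.40) and -0.82 with *Npas2* (exact *p* = 0.0347, adjusted 0.191; rho = -0.79; r = -0.82). None passed after adjustment. *Rora* also varied with the epithelial markers. The epithelial score, the mean centred log2 level of 8 epithelial markers, was 0.14, -0.11, -0.39 and 0.01 in *penk*-/- replicates 1 to 4, whose *Rora* values were in exactly the reverse order, and *penk*+/+ replicate 1 had both the highest score (0.25) and the lowest *Rora* value of its genotype (339). *Bmal1* was lowest among *penk*-/- mice where the score was lowest (3067) and highest where it was highest (4221). The part of the epithelial share in these relations was not tested.

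**Figure D2:**
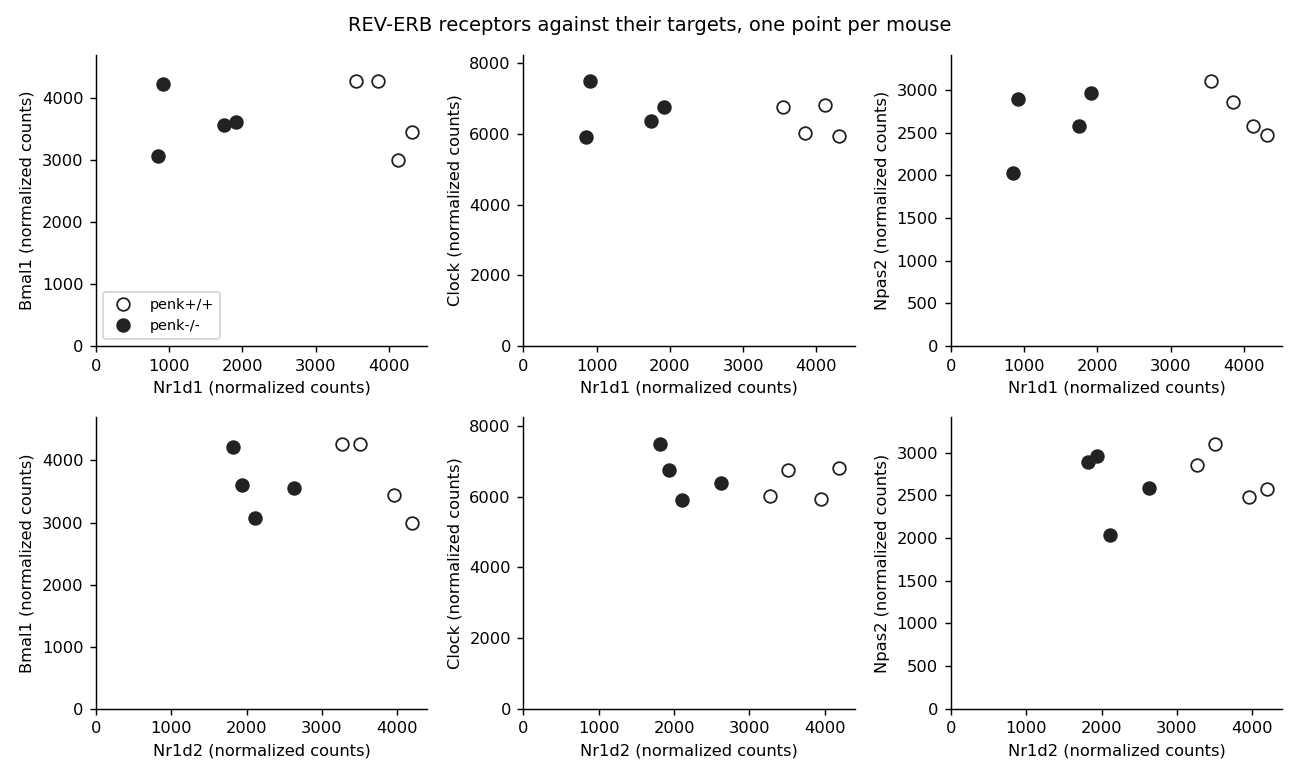
Normalized counts of *Bmal1*, *Clock* and *Npas2* (vertical axes, from 0) against those of *Nr1d1* (upper row) and *Nr1d2* (lower row, horizontal axes from 0), with 1 point per mouse, open for *penk*+/+ and filled for *penk*-/- chimeras. The filled points lie to the left of the open ones in all panels, at *Nr1d1* values up to 1916, while their heights overlap those of the open points.

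The other genes of the pathway were taken from 8 lists, which hold 62 further genes past the filter, 38 of them higher and 24 lower in *penk*-/- chimeras by mean log2 value. None was called by limma after adjustment, and for 7 of the 62 (11.3%) the groups did not overlap, beside the 5.63% of all genes. The lists were chosen with earlier results of these data known, so nothing is read from this count either. The median log2 fold change over all genes tested was 0.01. DESeq2 on the 7 libraries gave an adjusted *p* to 58 of the 62 and called 3 of them, *Dbp*, *Ppargc1a* and *Klf9*, beside 2.51% of all genes. With edgeR, which called 0.0261% of all genes, none of the 62 was called.

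Of the 16 listed targets of REV-ERB and ROR receptors, 15 were in the table and 13 past the filter, the 3 clock genes included. A total of 9 were higher and 4 lower in *penk*-/- chimeras, with a median log2 fold change of 0.10, and the groups overlapped for all 13. The lowest was *Bnip3*, a mitophagy gene (log2 fold change -0.28, SE 0.17). *Cry1*, a clock repressor under REV-ERB control and named here after its values were seen, had 2303, 1610, 1624 and 1381 normalized counts in *penk*-/- and 1440, 1308, 1016 and 1043 in *penk*+/+ chimeras. Only *penk*+/+ replicate 1 reached into the *penk*-/- range (log2 fold change 0.51, SE 0.17, 95% interval 0.14 to 0.89, adjusted *p* = 0.406 with limma). *Il6* and *Apoc3* were below the filter, with means under 3 normalized counts in each genotype.

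The clock genes that BMAL1 drives, like the REV-ERB genes themselves, were 12 in number, 5 higher and 7 lower, with a median log2 fold change of -0.07. *Dbp*, which codes for a transcription factor of the D-box and is among the clock outputs with the widest daily swing, was the only one whose groups did not overlap. It lies across from *Sphk2* on the opposite strand. It had 101, 73.3, 139 and 139 normalized counts in *penk*-/- and 215, 250, 284 and 424 in *penk*+/+ chimeras. The lowest *penk*+/+ value thus exceeded the highest *penk*-/- value (log2 fold change -1.37, SE 0.26, adjusted *p* = 0.323 with limma and 0.00154 with DESeq2 on 7 libraries). *Per2*, a repressor of the core loop, was at the other end, with overlapping groups (0.40, SE 0.21). *Tef* and *Hlf*, the relatives of *Dbp* and named here after their values were seen, had log2 fold changes of -0.39 (SE 0.21) and -0.32 (SE 0.25), again with overlapping groups.

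**Figure D3:**
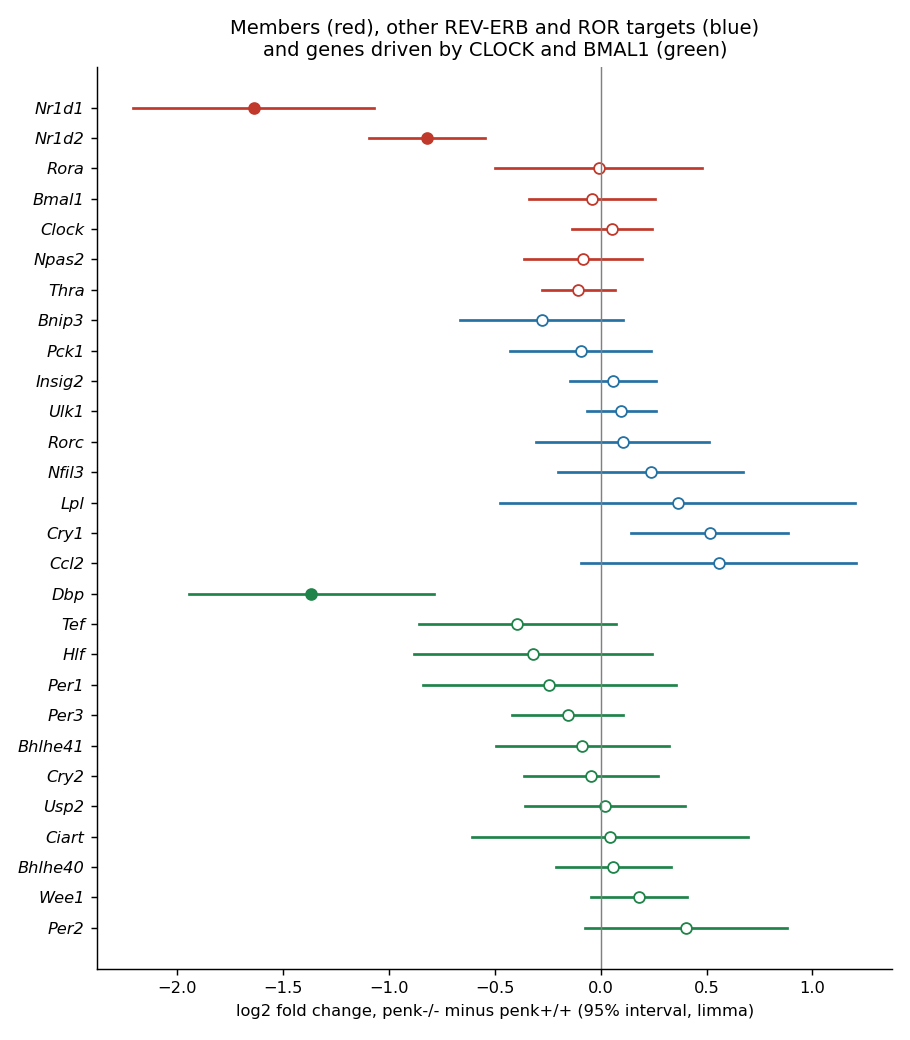
Log2 fold changes (horizontal axis, *penk*-/- minus *penk*+/+) with 95% intervals from limma for the 7 genes (red), other tested targets of REV-ERB and ROR receptors (blue) and the clock genes driven by CLOCK and BMAL1 (green). Filled points are genes whose groups do not overlap: *Nr1d1* at -1.64, *Nr1d2* at -0.82 and *Dbp* at -1.37, all lower in *penk*-/- chimeras.

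Among the cofactors through which the receptors act, the corepressor genes showed small differences. All 6 corepressor genes were higher in *penk*-/- chimeras, by at most 0.13 on the log2 scale (*Tbl1x*, a part of the NCoR complex), the smallest being 0.01 for *Hdac3*. The groups did not overlap for *Gps2*, another part of that complex, with 1244, 1113, 1122 and 1177 normalized counts in *penk*-/- and 1091, 1073, 1089 and 1078 in *penk*+/+ chimeras (log2 fold change 0.10, SE 0.06). Of the 5 coactivator genes, 2 were higher and 3 lower. *Ppargc1a*, coding for the coactivator PGC-1α of ROR receptors, had 3416, 3585, 2850 and 3146 normalized counts in *penk*-/- and 4469, 3733, 4743 and 4099 in *penk*+/+ chimeras. The groups did not overlap, by a margin that *penk*-/- replicate 2 and *penk*+/+ replicate 2 made narrow (log2 fold change -0.39, SE 0.10, adjusted *p* = 0.339 with limma and 0.0244 with DESeq2 on 7 libraries). *Ncoa1*, a steroid receptor coactivator, was the highest of the list (0.10, SE 0.06).

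Heme is the ligand of the REV-ERB receptors, and of the 11 genes of its synthesis and breakdown 6 were higher and 5 lower, with a median log2 fold change of 0.02. The groups did not overlap for a pair of synthesis enzymes that differed in opposite directions. *Fech*, which codes for ferrochelatase, the last enzyme of the path, had 2619, 2805, 2652 and 2708 normalized counts in *penk*-/- and 2935, 2901, 3008 and 2992 in *penk*+/+ chimeras (log2 fold change -0.13, SE 0.05). *Cpox*, coding for an earlier enzyme, had 1708, 1689, 1884 and 1863 in *penk*-/- and 1503, 1618, 1611 and 1673 in *penk*+/+ chimeras (0.16, SE 0.06). *Hmox1*, coding for the heme-degrading oxygenase, had the highest value of the list, with overlapping groups (0.34, SE 0.15).

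Of the 5 genes of REV-ERB protein turnover, 2 were higher and 3 lower, none with groups apart. *Siah2*, a ubiquitin ligase gene, was highest (0.39, SE 0.20) and *Gsk3b*, coding for a kinase that stabilizes REV-ERBα, lowest (-0.09, SE 0.08). Of the 6 other family members and partners, 5 were higher and 1 lower. *Rorb*, at 24.5 to 55.7 normalized counts, was highest (0.59, SE 0.26), and *Rxra*, a receptor partner gene, lowest (-0.01, SE 0.10). Only *Rxrb*, another such partner gene, had groups apart, with 1866, 1755, 1760 and 1918 normalized counts in *penk*-/- and 1678, 1703, 1639 and 1705 in *penk*+/+ chimeras (0.12, SE 0.06).

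The thyroid hormone list, which goes with *Thra*, held 8 genes, 5 higher and 3 lower. *Klf9*, a transcription factor gene that responds to thyroid hormone and to glucocorticoids, had 3819, 3951, 3588 and 4186 normalized counts in *penk*-/- and 4846, 4639, 5240 and 4483 in *penk*+/+ chimeras. It was the only gene of the list whose groups did not overlap (log2 fold change -0.31, SE 0.07, adjusted *p* = 0.339 with limma and 0.0443 with DESeq2 on 7 libraries). *Thrsp*, a gene of lipid synthesis, had the highest value (1.17, SE 0.74), with 2298 normalized counts in *penk*-/- replicate 3 and 173 to 687 in the other *penk*-/- chimeras, and *Dio1*, coding for a deiodinase, the lowest (-0.36, SE 0.13).

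The genes whose pattern over the 8 libraries was most like that of *Nr1d1* were *Ptpre* (Pearson r = 0.987), *Pik3r4* (0.974), *Fech* (0.970), *Cyp27a1* (0.969) and *Dhx35* (0.968). The most opposite were *Zmynd19* (-0.985), *Agmo* (-0.966), *Tomm70a* (-0.965), *Rbm15b* (-0.959) and *Trmt44* (-0.958). These values describe log2 levels over 8 libraries and largely follow the split between the genotypes. For all 10 genes the groups were apart, beside 5.63% of all genes tested. Picking genes by their likeness to *Nr1d1* favours such genes, so nothing is read from this count. *Ptpre*, coding for a protein tyrosine phosphatase, had 642, 765, 597 and 777 normalized counts in *penk*-/- and 871, 896, 899 and 908 in *penk*+/+ chimeras. Its *penk*-/- replicates 1 and 3 were below replicates 2 and 4, the pattern of *Nr1d1* by which it was picked. *Nr1d2* ranked 61 in this order (r = 0.901). On deviations from the genotype means, 1 of the 5 most similar genes, *Ptpre*, was again among the first 5.

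The biopsies were checked for the cells they held. All 8 epithelial markers were present in every library, with *Krt8* the most abundant, as the label of colon tissue implies. The markers were lower in *penk*-/- chimeras in 7 of 8 cases, with a median log2 fold change of -0.19 and overlapping groups throughout. Their summed level was 584335, 512199, 413093 and 538785 in *penk*-/- and 640980, 544460, 533938 and 572205 in *penk*+/+ chimeras. Per 1000 normalized counts of the epithelial gene *Epcam*, *Nr1d1* was at 13.8, 34.1, 17.5 and 29.1 in *penk*-/- and 50.3, 60.1, 68.8 and 65.9 in *penk*+/+ chimeras. *Nr1d2* was at 27.4, 34.5, 43.4 and 43.9, against 49.8, 51.0, 69.9 and 60.4. For both the groups stayed apart. Because both genes were chosen by their low values in *penk*-/- chimeras, this is a description and no check of the epithelial share. The means per 1000 of *Epcam* were higher in *penk*-/- chimeras for *Bmal1* (62.6 against 57.4), *Clock* (115 against 98.6) and *Npas2* (45.3 against 42.3), with overlapping groups. With the epithelial score as a covariate, an alternative added once the data had been seen, the log2 fold change was -1.58 for *Nr1d1* and -0.86 for *Nr1d2*. That of *Rora* moved to -0.35, that of *Bmal1* to 0.13, that of *Clock* to 0.13, that of *Npas2* to 0.08 and that of *Thra* to -0.05.

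**Figure D4:**
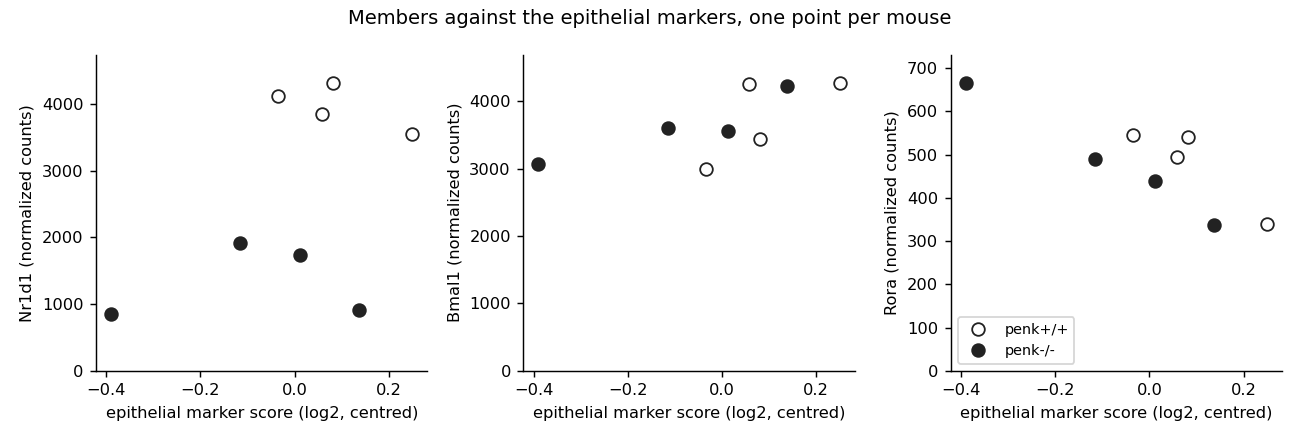
Normalized counts of *Nr1d1*, *Bmal1* and *Rora* (vertical axes, from 0) against the epithelial marker score (horizontal axes, log2, centred over the 8 libraries), with 1 point per mouse, open for *penk*+/+ and filled for *penk*-/- chimeras. The *Nr1d1* values of the genotypes are apart (highest *penk*-/- value 1916), and *Rora* is highest (665) in the mouse with the lowest score (-0.39).

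The median log2 fold change was 0.05 over 5 smooth muscle markers (most abundant *Myh11*), -0.05 over 6 markers of enteric neurons and glia (*Uchl1*), 0.19 over 5 immune markers (*Lyz2*) and 0.17 over 2 endothelial markers (*Pecam1*), with overlapping groups for every marker and none at 0 in any library. The T cell marker *Cd3e*, named here after its values were seen, differed from the other immune markers in direction, with 6.06, 18.3, 16.0 and 23.2 normalized counts in *penk*-/- and 21.2, 28.5, 32.7 and 22.3 in *penk*+/+ chimeras (log2 fold change -0.80, SE 0.38). The part of T cells in the results was not tested. The summed immune markers, mostly *Lyz2*, were 6906, 8868, 9037 and 11237 in *penk*-/- and 5772, 9330, 9088 and 7336 in *penk*+/+ chimeras. Over 3 prostate markers the median was 0.03. The prostate gene *Pbsn* was listed at 0 in 1 library of each genotype and was most abundant in *penk*-/- replicate 3 (105658) and *penk*+/+ replicate 4 (111024). Without these 2 libraries, the log2 fold change was -1.40 for *Nr1d1*, -0.79 for *Nr1d2*, -1.29 for *Dbp* and -0.11 for *Rora*.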

How the data were processed

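Colonic RNA of 4 *penk*-/- and 4 *penk*+/+ chimeras was sequenced as stranded poly-A libraries. Per the labels and methods, the authors aligned and quantified reads with STAR 2.7.8a on GRCm39 and used DESeq2 1.30.0; the deposited values are a normalized signal, read counts divided by a size factor, with 1 value per gene and mouse. In each library all values were whole multiples of a step (within 0.001), and reads and depth were obtained by division by it. Of 26008 genes, 25776 matched GENCODE M39.

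The genotypes were compared with limma 3.58.1 (R 4.3.3, trend, two-sided, Benjamini-Hochberg, no covariates) on log2(value + 1), for 19127 genes with a mean of at least 10, which understates differences of low genes. Count tests planned on all 8 libraries were run on 7 (edgeR 4.0.16, DESeq2 1.42.0), since the step of *penk*-/- replicate 1, 1.01, lies too near 1 for the check of recovered reads applied here. The depth of that library rests on the same division without that check. Libraries of a genotype differed by a chi-square per degree of freedom of at least 11. The procedure was tested on simulated data. The members, lists and tests were chosen with earlier results of these data known. Genes named are *Penk*, the members, the 5 most and 5 least like *Nr1d1*, and of each list the extremes and those with groups apart. 1 listed target is not reported here by name.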

Additional observations from a re-analysis of the deposited data

How the results depend on the processing

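With limma, 0 genes had an adjusted *p* below 0.05, and 1 with quantile normalization, 1 with the epithelial score as a covariate, 5 with edgeR and 367 with DESeq2 on 7 libraries, the last 3 settings chosen after seeing the data; leaving out 1 library at a time gave 0 to 6, the 6 without *penk*-/- replicate 1. The cause was not tested. With the replicate number as a block, 1 gene was called, and 2938 instead of 1842 had an unadjusted *p* below 0.05 (1383 to 2222 leaving out 1 library). The numbers are not shown to pair the mice: the deviations of same-numbered libraries correlated at 0.145, -0.0444, -0.321 and -0.162. Groups did not overlap for 1077 genes, for 1497 to 2302 without 1 library (2302 without *penk*-/- replicate 1, 2136 without *penk*+/+ replicate 4, 1826 without *penk*+/+ replicate 3, 1684 and 1666 without *penk*-/- replicates 2 and 3) and for 2926 without the 2 libraries with the most *Pbsn*; fewer libraries leave fewer values to overlap. Of the 5 genes most like *Nr1d1*, 1 remained on deviations from the genotype means, and 3 of 7 members kept their place by level per kilobase with the longest transcript. The log2 fold changes of the 7 members stayed within 1 SD of the main value in all 19 settings (-1.84 to -1.40 for *Nr1d1*, -0.93 to -0.74 for *Nr1d2*). The adjusted *p* of *Dbp*, *Ppargc1a* and *Klf9* was below 0.05 with DESeq2 only. No relation within genotypes passed its threshold over the 8 libraries (Pearson, Spearman or the larger pseudocount); without the 2 farthest libraries too few orders remain for a single relation to pass, so that setting gives values of r only. Counting error is small at these depths (272 to 8133 reads per member and library), and 4 mice per genotype limit the precision. DESeq2 and edgeR on all 8 libraries were not run.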
